A study of Equus caballus with 25 samples.

Results

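CCL17, also called thymus and activation-regulated chemokine (TARC), was measured in the bronchoalveolar lavage (BAL) cells of 25 horses by the array probe named for the equine Ensembl transcript ENSECAT00000000039. It was the only probe taken for the gene, 1 of the 7238 transcripts on the array and 1 of the 4930 that passed the intensity limit. Each horse contributed 1 array. The 7 CTRL horses (diagnosis label Control) were standardbreds without respiratory signs, aged 6 ± 1 years. Of these, 4 were female and 3 male. The 10 MEA horses had mild equine asthma (label IAD, inflammatory airway disease) with neutrophilic airway inflammation and no mast cell or eosinophilic form. Their age was 6 ± 1 years, 7 were saddle horses and 3 standardbreds, and 5 were of each sex. The 8 SEA horses had severe equine asthma (label RAO, recurrent airway obstruction), an age of 12 ± 1 years, and comprised 6 saddle horses and 2 standardbreds, with 4 of each sex. What the error of the ages stands for is not stated in the sources used here. Diseased horses were lavaged during routine diagnostic work and CTRL horses were enrolled by their owners, all under xylazine sedation. Age and breed differed between SEA and CTRL, breed also between MEA and CTRL, and age also between SEA and MEA. The cell make-up of the lavage differed too. By the study's counts nearly all CTRL cells and most MEA cells were macrophages, whereas most SEA cells were neutrophils. The part of age, breed and cell make-up in a difference between these groups cannot be told apart from that of the disease. The macrophage genes CD68 and MARCO were well above background on all 25 arrays.

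CCL17 is a secreted chemokine of the CC class. It binds the receptor CCR4 and draws T helper type 2 and other CCR4-bearing lymphocytes into tissue. Dendritic cells, alternatively activated macrophages and airway epithelium are known sources, and interleukin 4, interleukin 13 and thymic stromal lymphopoietin (TSLP) are known inducers. In human allergic disease it is widely used as a marker of type 2 inflammation. In the horse assembly TB-T2T, the RefSeq gene list places CCL17 next to CX3CL1, with CCL22, the other ligand of CCR4, beyond it.

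The probe is shown because every CCL17 value below rests on it. Its sequence, printed 5′ to 3′ as the array files give it, was 60 bases long with a GC content of 55.0%. The capitals, bases 3 to 8, are the codons TGC and TGT, which both encode cysteine and form the adjacent pair that gives CC chemokines their name.
CCL17 probe: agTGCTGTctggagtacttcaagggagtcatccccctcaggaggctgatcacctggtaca
The longest run of bases that it shared in the same orientation with any of the other 7237 probes was 13, so no other transcript on the array was measured with the same oligonucleotide. The genome position of the probe was not analysed here.

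CCL17 was low in most CTRL horses, ranged from background to high in MEA horses and was high in all SEA horses but 1. On the normalized log2 scale the CTRL horses read 5.49, 7.61, 6.73, 3.48, 7.10, 7.23 and 6.62 in the order of their numbers. The MEA horses 1 to 10 read 9.20, 4.04, 9.03, 8.40, 9.88, 4.86, 8.19, 7.81, 5.16 and 5.52. The SEA horses 1 to 8 read 6.82, 12.41, 8.98, 9.69, 9.02, 11.61, 9.06 and 12.10. Of the SEA horses, 7 of 8 lay above the highest CTRL horse, and the exception was SEA 1, which 3 of 7 CTRL horses exceeded. Only 3 SEA horses, numbers 2, 6 and 8, lay above the highest MEA horse.

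**Figure D1:**
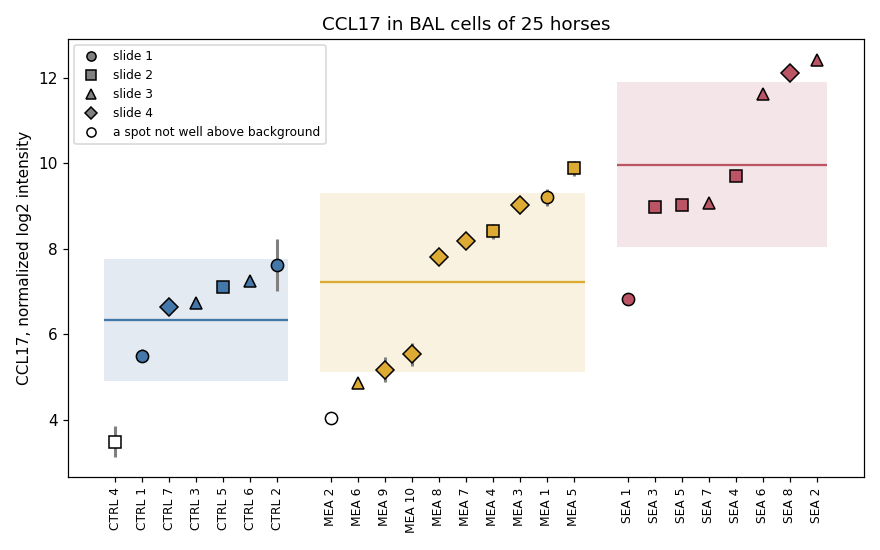
CCL17 on the normalized log2 scale (vertical axis) in each of 25 horses, ordered within CTRL, MEA and SEA. Each symbol is the mean of 2 spots, its shape gives the slide, the grey bar joins both spots, an open symbol marks an array on which a spot was not well above background, and the line and band are the group mean ± 1 SD. The MEA horses run from 4.04 to 9.88, with none between 5.52 and 7.81.

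The 2 spots of the probe differed by a median of 0.19 on the log2 scale, and by at most 1.2, in CTRL 2. Both spots were well above background on 23 of 25 arrays. In CTRL 4 only 1 spot and in MEA 2 neither spot reached that mark, so these low readings were near the limit of detection. No CCL17 spot was saturated. In the scanner's own units, before any normalization between arrays, the spots ran from 6.43 and 10.5 in CTRL 4 to 6910 and 6560 in SEA 8.

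The study compared the diseased groups with healthy horses and with each other. Mean CCL17 was 6.33 ± 1.42 in CTRL (SD, n = 7), 7.21 ± 2.102 in MEA (SD, n = 10) and 9.96 ± 1.92 in SEA (SD, n = 8). CCL17 was 3.64 higher in SEA than in CTRL on the log2 scale, a fold of 12.4, with a 95% interval of 1.91 to 5.36 (limma SE 0.80, adjusted p = 0.00981). The exact two-sided permutation test of the group means over 6435 regroupings gave p = 0.00124. In this comparison 32.5% of tested transcripts were called, at an adjusted p below 0.1 and a fold of at least 1.5, and CCL17 had the third largest rise of the 4930.

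MEA and CTRL did not differ in mean CCL17 beyond the spread between horses. The difference was 0.88 on the log2 scale with a 95% interval of -0.87 to 2.64 (limma SE 0.82, adjusted p = 0.539; exact two-sided permutation p = 0.346). The interval holds both no change and a rise as large as that of many called transcripts, and 9.74% of transcripts were called between these groups. CCL17 ranked 150 of 4930 by rise. Although the difference of the means did not pass, 6 of 10 MEA horses lay above the highest CTRL horse.

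SEA exceeded MEA by 2.75 on the log2 scale, a fold of 6.74, with a 95% interval of 0.89 to 4.62 (limma SE 0.88). The exact two-sided permutation test gave p = 0.0122 for CCL17 alone. After adjustment over all transcripts limma gave p = 0.122, just outside the threshold, in a comparison in which 2.05% of transcripts were called. CCL17 had the eighth largest rise of the 4930. This call depended on the fit. It passed with all 25 arrays in 1 fit (adjusted p = 0.0762) and with array weights (adjusted p = 0.00785), and also when SEA 1, MEA 1, MEA 3 or MEA 5 was left out, with adjusted p from 0.0506 to 0.0925. The order of the group means was SEA, MEA and CTRL, and neither neighbouring pair in it differed past this threshold.

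**Figure D2:**
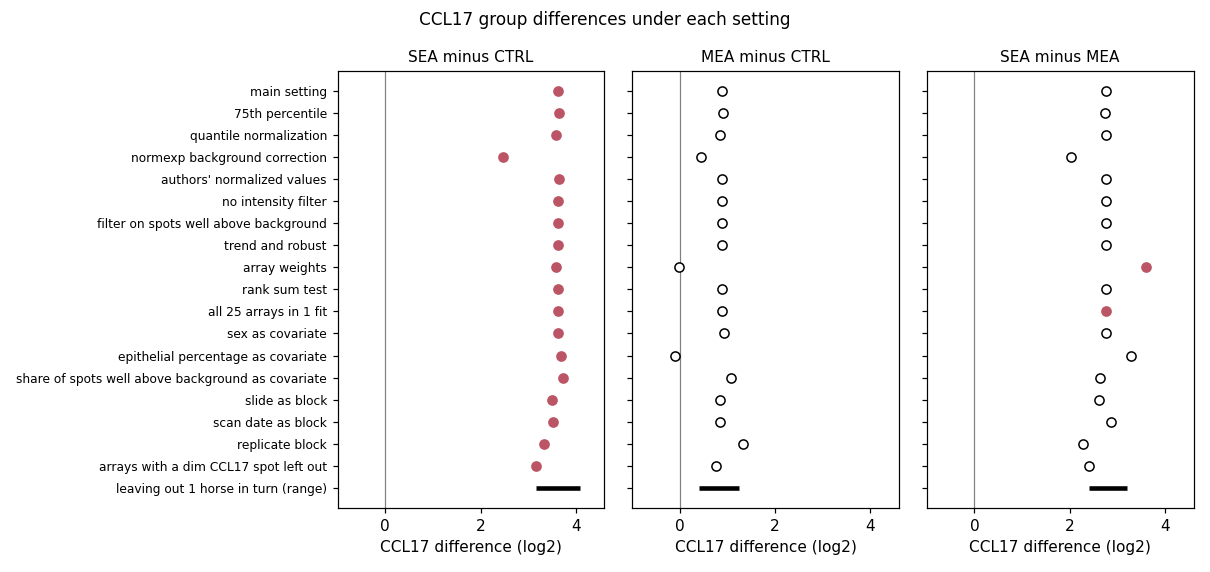
The CCL17 difference (log2, horizontal axis) for SEA minus CTRL, MEA minus CTRL and SEA minus MEA under each processing setting (rows). Filled points were called and open points were not, and the bar is the range when 1 horse is left out in turn. SEA minus CTRL was called under every setting plotted, from 2.47 with normexp background correction to 3.72 with the array's percentage of detected spots as a covariate.

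The arrays lay on 4 slides, each with horses of all groups. Within slide 1 the SEA horse stood 0.26 above the mean of the CTRL horses. The same difference was 3.94 on slide 2, 4.04 on slide 3 and 5.48 on slide 4. SEA 1, the lowest SEA horse, was the only SEA horse on slide 1, and SEA minus CTRL was 4.08 without it. With the slide as a block the difference was 3.502 (limma adjusted p = 0.0111). MEA minus CTRL was 0.06, 3.85, -2.12 and 0.52 on slides 1 to 4, so its sign was not the same on all slides. The means of males and females were 5.61 and 6.86 in CTRL, 7.06 and 7.35 in MEA and 10.68 and 9.24 in SEA, and no difference between the sexes was tested.

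CCL17 was among the most variable transcripts inside every group, and its rank was highest inside MEA. Its SD between the MEA horses was 2.102 against a median of 0.58 for all tested transcripts, which placed it 22nd of 4930. It was 122nd of 4930 in CTRL with an SD of 1.42 and 106th in SEA with an SD of 1.92. The highest SEA horse stood 48.4-fold above the lowest. In MEA, with MEA 2 near background left aside, the horses ran from 4.86 to 9.88 on the log2 scale. Between the 2 spots of the same array the SD was 0.25 in MEA, 0.40 in CTRL and 0.09 in SEA, which covers the reading of the spots and no step before it. The MEA spread did not rest on the array at background, since the SD was 1.89 without MEA 2. The CTRL spread did depend on 1 array and was 0.73 without CTRL 4. SEA without SEA 1 had an SD of 1.56. These ranks are descriptions, and no test compared the spread of the groups.

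**Figure D3:**
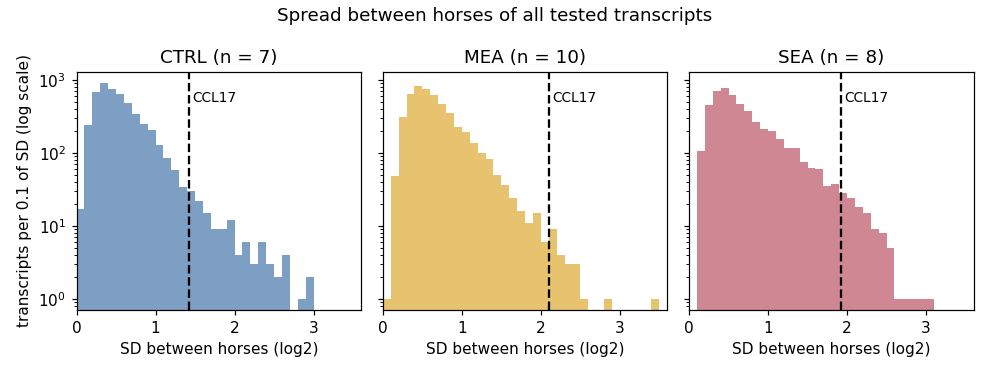
Number of tested transcripts (vertical axis, log scale) by the SD between horses of their log2 intensity (horizontal axis, bins of 0.1) in CTRL, MEA and SEA. The dashed line marks CCL17, at 1.42, 2.102 and 1.92, in the far right tail of each group.

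No relation of CCL17 to a cell percentage of the lavage passed its test in any group. The share of neutrophils, macrophages, lymphocytes and epithelial cells had been counted in the cytology of the same horses, which gave 12 relations over the 3 groups, and 0 of them reached an adjusted p below 0.05 or a raw permutation p below 0.05. The strongest was with epithelial cells in MEA, with r = 0.641 (permutation p = 0.0518, adjusted p = 0.622 over the 12 relations) and rho = 0.470 (permutation p = 0.173) over 10 horses. Without the pair of horses farthest from the median percentage r was 0.551. In MEA the neutrophil percentage gave r = -0.311 (permutation p = 0.372) and rho = -0.316 (permutation p = 0.371), and the macrophage percentage gave r = 0.471 (permutation p = 0.171) and rho = 0.488 (permutation p = 0.153). The macrophage relation rested on 2 horses, since r was -0.190 without them. For lymphocytes, which include the cells that CCL17 attracts, r was 0.238 in MEA (permutation p = 0.498) with rho = 0.188 (permutation p = 0.606), and -0.0446 without 2 horses.

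No relation passed in the other groups either. In SEA r was -0.195 with neutrophils, 0.245 with macrophages, 0.115 with lymphocytes and 0.0769 with epithelial cells, with exact permutation p from 0.570 to 0.855 over 8 horses. Spearman's rho in SEA was -0.143, 0.214, -0.446 and 0.205 for these cells (exact permutation p from 0.269 to 0.752). In CTRL r was 0.491, -0.308, 0.0574 and -0.385, with exact permutation p from 0.250 to 0.901 over 7 horses, and rho was 0.491, -0.234, 0.162 and -0.441 (exact permutation p from 0.268 to 0.733). With 7 to 10 horses a group only a strong relation could have been seen. Eosinophils were seen in 4 CTRL, 3 MEA and 2 SEA horses. Median CCL17 in horses with and without eosinophils was 5.52 and 8.19 in MEA, 6.92 and 5.49 in CTRL, and 9.21 and 9.37 in SEA, so the order was not the same in all groups. No difference was tested.

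**Figure D4:**
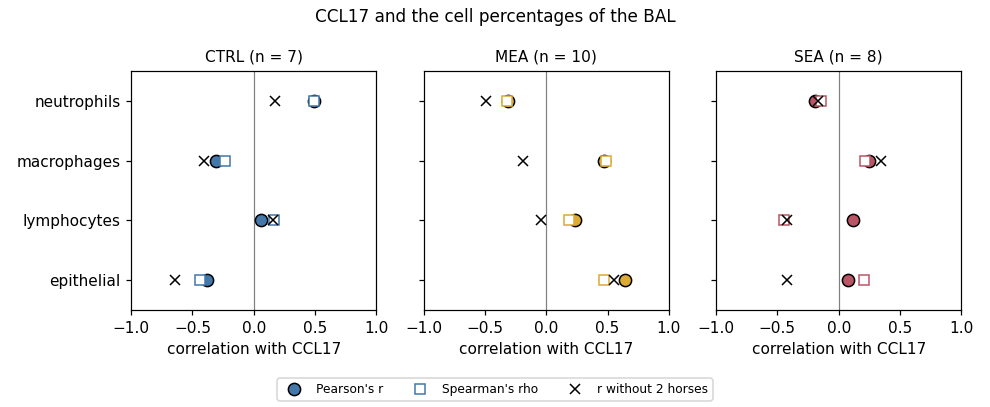
Correlation of CCL17 with the percentage of each cell type (rows) within CTRL, MEA and SEA. Circles are Pearson's r, squares Spearman's rho, and crosses r without the 2 horses farthest from the median percentage. The largest r is 0.641, for epithelial cells in MEA, and several signs differ between the groups or turn without 2 horses.

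To find the transcripts whose levels followed CCL17 from horse to horse, each transcript was regressed on CCL17 with the group as a factor, so that differences between group means did not enter. Over the 25 horses 245 transcripts, 4.97% of 4929, were associated with CCL17 at an adjusted p below 0.1 in limma, of which 197 rose with it and 48 fell. The likeness is given as r over the deviations of 25 horses from their group means. Of the 245, 133 had a name, against 1683 of the 4929, so named transcripts were more frequent among those associated. The lists below were drawn from named transcripts. For their counts, 133 of 1683 is therefore a nearer background than 4.97%. Names were paired only for transcripts that the study itself had listed as differing between groups. Of the 197 that rose, 111 were also called higher in SEA than in CTRL and 0 lower, and of the 48 that fell, 1 was called higher and 8 lower, where 15.9% of all tested transcripts were called higher and 16.6% lower.

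The most alike transcripts with a name were RELT, a receptor of the tumor necrosis factor family (r = 0.719), AHR, the aryl hydrocarbon receptor (r = 0.709), TLE3, a transcriptional corepressor (r = 0.699), and MBP, the gene of myelin basic protein (r = 0.697). In SEA, CTRL and MEA alone RELT gave r of 0.807, 0.903 and 0.620, and AHR gave 0.935, 0.810 and 0.462. The highest r of all, 0.746, belonged to ENSECAT00000003280, which the sources used here do not pair with a name. MBP ran from 5.67 to 11.11 in MEA and from 5.56 to 12.68 in SEA on the log2 scale, against 5.596 to 7.82 in CTRL. The lowest r was -0.734, for the unnamed ENSECAT00000013543.

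The number of calls changed with the setting and with single horses, while the r of these 4 named transcripts moved little with the slide as a block. With the slide as a block 0 transcripts passed in limma (748 at an unadjusted p below 0.05, against 970 before), and with the array's percentage of detected spots (those well above background) as a covariate 1 passed. Without SEA 1 the count in limma was 0 (632 at an unadjusted p below 0.05), without MEA 5 it was 40, without SEA 2 it was 33, and without MEA 1 it was 424. Without SEA 6 it was 90, without MEA 3 it was 102 and without MEA 4 it was 366. With the slide as a block r was 0.730 for RELT, 0.706 for AHR, 0.694 for TLE3 and 0.685 for MBP. CCL17 itself gave r = 0.347 with the share of spots well above background in MEA (permutation p = 0.334, rho = 0.248 with permutation p = 0.490, r = -0.517 without 2 horses). In SEA this r was 0.394 (exact permutation p = 0.331, rho = 0.548 with exact p = 0.171, r = 0.719 without 2 horses), and in CTRL it was 0.428 (exact permutation p = 0.354, rho = 0.214 with exact p = 0.662, r = 0.809 without 2 horses). Over these 3 relations and the one with the SEA and CTRL difference given last, the adjusted p of every r was 0.468 and the lowest adjusted p of rho was 0.557.

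Inside the groups taken alone, 102 transcripts passed in SEA, 3 in CTRL and 0 in MEA. Those of SEA had 96 distinct probe sequences and those of CTRL had 2. In limma 951, 391 and 200 of the 4929 had an unadjusted p below 0.05 in SEA, CTRL and MEA. The SEA count in limma was 0 without SEA 1, SEA 2, SEA 4 or SEA 8 (374 to 1188 at an unadjusted p below 0.05), 8 without SEA 3, 18 without SEA 5, 35 without SEA 6 and 267 without SEA 7, so it depended on single horses. In SEA the named transcripts most alike were TBC1D15, a regulator of Rab GTPases (r = 0.969), and EIF2C2, the Argonaute protein of RNA interference (r = 0.969), both after the unnamed ENSECAT00000014290 (r = 0.985). SPP1, osteopontin, followed with r = 0.940. The lowest with a name were ECH1, an enzyme of fatty acid oxidation (r = -0.983), and TMTC1 (r = -0.970). In MEA the highest r was 0.857, for the unnamed ENSECAT00000001740, and the only named transcript of the 5 highest was RFX1, a transcription factor (r = 0.793). The lowest r in MEA was -0.913, for ENSECAT00000007412, also unnamed.

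In CTRL the transcripts most alike were FLT1, a receptor of vascular endothelial growth factor (r = 0.982), TSPAN14, a tetraspanin (r = 0.976), UBTF, a factor of ribosomal RNA transcription (r = 0.964), and CLEC7A, the beta-glucan receptor dectin 1 (r = 0.958, limma adjusted p = 0.0785). The other FLT1 transcripts, ENSECAT00000023490 and ENSECAT00000023066, gave 0.742 and -0.263 in CTRL. CLEC7A gave r of 0.0637 in MEA and 0.0783 in SEA. In limma 0 transcripts passed in CTRL when CTRL 1, CTRL 4, CTRL 5 or CTRL 6 was left out (282 to 412 at an unadjusted p below 0.05), and CTRL 4 was an array with CCL17 near background.

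The r of all transcripts with CCL17 was also set side by side between groups. The MEA and SEA horses have no animal in common, and the r of each transcript with CCL17 in MEA correlated at 0.477 with its r in SEA across 4929 transcripts. The same figure was 0.168 between CTRL and MEA and 0.0303 between CTRL and SEA. The 50 transcripts of highest r in MEA had a median r of 0.621 in SEA, where the median of all transcripts was 0.0909, and 42 of the 50 had the same sign there. The 50 of lowest r in MEA had a median r of -0.399 in SEA. Transcripts are not independent of one another, so these figures are descriptions without a test. The value between MEA and SEA ranged from 0.408 to 0.534 over the other normalizations and the covariate, and was 0.163 with the slide as a block, where CTRL and SEA gave 0.130 and CTRL and MEA gave -0.0846. The slope on CCL17 itself differed between SEA and MEA for 0 transcripts in limma (226 at an unadjusted p below 0.05).

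Among the genes known to act before CCL17, the receptors CRLF2 and CSF2RB were called as rising with it, though not under every setting. Of 12 tested transcripts of this list, 4 were called as associated with CCL17, all rising, where 4.97% of all tested transcripts were associated. The list's median r was 0.316, against 0.000360 for all tested transcripts. It was 0.114 for the 1683 named transcripts, from which every list was drawn. CRLF2, the specific chain of the TSLP receptor, gave r = 0.627 (limma adjusted p = 0.0560), and 0.889, 0.642 and 0.405 in SEA, CTRL and MEA alone. CRLF2 ran from 3.56 to 6.07 in CTRL, from 3.86 to 7.10 in MEA and from 4.15 to 9.07 in SEA on the log2 scale. Both transcripts of CSF2RB, the beta chain shared by the receptors of GM-CSF, interleukin 3 and interleukin 5, gave r of 0.622 and 0.621 (limma adjusted p = 0.0560 and 0.0567). SOCS3, a feedback inhibitor of cytokine signaling, passed with 1 of 2 transcripts of the same probe sequence (r = 0.565 and 0.512). IL4R, the receptor chain of interleukin 4 and interleukin 13, gave r = 0.337 and did not pass (limma adjusted p = 0.367), and STAT5A had the lowest r, -0.272. None of the 4 calls held with the slide as a block or without SEA 1, since 0 transcripts then passed in limma (748 and 632 at an unadjusted p below 0.05). The list's median r was 0.365 with that block.

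All 12 transcripts of that list were called higher in SEA than in CTRL, where 15.9% of all tested transcripts were called higher and 16.6% lower. Since names exist only for transcripts that the study listed as differing, such counts are fixed in part by the choice of the list and nothing is read from them. CRLF2 was 1.99 higher in SEA than in CTRL on the log2 scale (limma SE 0.56, adjusted p = 0.0197) and 0.33 higher in MEA (adjusted p = 0.706).

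**Figure D5:**
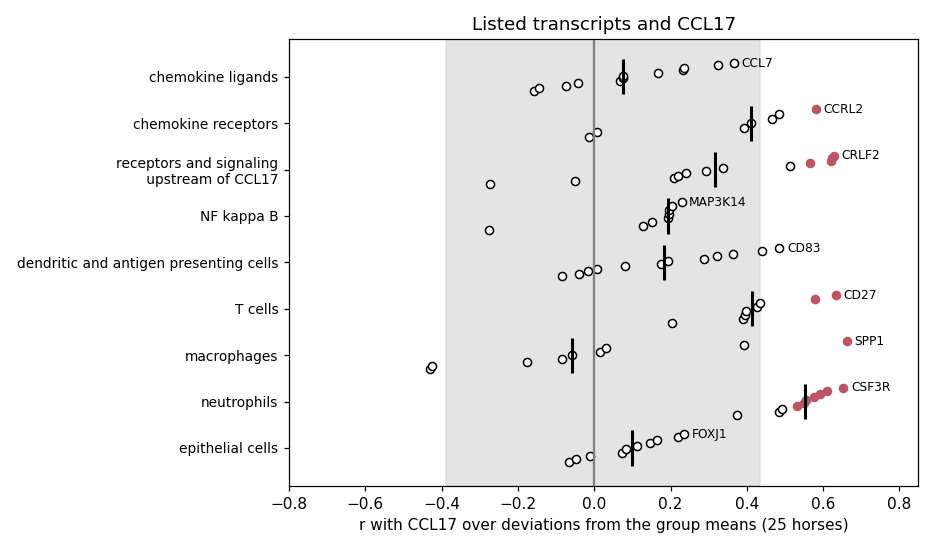
The r with CCL17 of each tested transcript of 9 gene lists (rows), over the deviations of 25 horses from their group means (horizontal axis). Filled points passed an adjusted p below 0.1, open points did not, black bars are list medians, and the grey band holds the middle of all tested transcripts from the 10th to the 90th percentile (-0.389 to 0.434). The neutrophil list lies farthest to the right, with a median of 0.553.

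No transcript of the 9 other chemokine ligand genes listed here passed the test of association with CCL17. Ligands without a name in the sources used here could not be looked for. Of 12 tested transcripts of chemokine ligands 0 rose or fell with it in limma, with a median r of 0.0757, and with 4.97% of all transcripts associated this count is near the background. The highest was CCL7, an attractant of monocytes, with r = 0.366 for ENSECAT00000025681 (limma adjusted p = 0.291) and 0.0766 for ENSECAT00000025677, a different probe. The neutrophil attractants IL8 and CXCL2 gave r of 0.323 and of 0.235, 0.0673 and -0.145 for the 3 CXCL2 transcripts. CCL20, CXCL17, CCL4, CXCL11 and CXCL10 lay between 0.233 and -0.0734. CCL18, which binds CCR8, had the lowest r, -0.158. Of the 12, 8 were called higher in SEA than in CTRL and 2 lower, CXCL17 and CXCL10, against 15.9% and 16.6% of all tested transcripts, and here too the names come from the study's lists of differing transcripts.

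Of 7 listed chemokine receptors 1 was called as rising with CCL17, where 4.97% of all tested transcripts were associated. This was CCRL2, an atypical receptor that binds chemerin (r = 0.580, limma adjusted p = 0.0674), with r of 0.612 in SEA, 0.621 in MEA and 0.341 in CTRL. The call did not hold with the slide as a block or without SEA 1. CXCR6, found on memory T cells, gave an r of 0.467. CCR2 gave 0.410, CXCR4 0.392, CCR7 0.00846 and CCRL1 -0.0135, and none of these passed. The receptor of CCL17 itself, CCR4, is not among the named transcripts and was not analysed here. Of the NF kappa B genes 0 of 8 tested transcripts passed, near the 4.97% of all transcripts. Their median r was 0.194, with MAP3K14 highest at 0.229, NFKBIA at 0.205, RELB at 0.197 and NFKB1 lowest at -0.277.

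Markers of neutrophils showed the most calls of any list. Of 10 tested transcripts, with 9 distinct probe sequences, 7 were called as rising with CCL17 and 0 as falling. Of all tested transcripts 4.97% were associated. The 7 had 6 distinct probe sequences. The list's median r was 0.553, against 0.114 for all named transcripts. CSF3R, the receptor of G-CSF, gave r = 0.653 (limma adjusted p = 0.0526), and the 2 transcripts of TREM1, an activating receptor of myeloid cells measured with the same probe sequence, gave 0.609 and 0.593. MMP9, FCAR, IL1R2 and LTB4R also passed. CSF3R ran from 5.69 to 10.57 in CTRL, from 6.63 to 13.87 in MEA and from 5.96 to 13.01 in SEA. The mean level of the 10 transcripts ranged from 7.62 to 10.7 in CTRL, from 8.68 to 13.0 in MEA and from 8.58 to 12.82 in SEA. SEA 1, lowest of the SEA horses in CCL17, also had the lowest list mean in SEA, 8.58. This lay under the CTRL median of 8.90, although the study counted mostly neutrophils in SEA 1. The highest list mean of any horse, 13.0, belonged to MEA 3, where the study counted mostly macrophages. By group the order was the other way, since the SEA median of 11.3 exceeded 9.23 for MEA and the CTRL median. How far this list follows the neutrophil content of a lavage was not tested. With the slide as a block all 10 transcripts kept an r above 0 and the median r was 0.535. None of the 7 calls held with that block or without SEA 1, since 0 transcripts then passed in limma (748 and 632 at an unadjusted p below 0.05). The r of CSF3R was 0.579 or higher with any 1 horse left out. The counted percentage of neutrophils gave an r with CCL17 of -0.311 in MEA, -0.195 in SEA and 0.491 in CTRL, none of which passed. In bulk samples, more cells of a type and more RNA per cell cannot be told apart.

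Markers of T cells held fewer calls, where 4.97% of all tested transcripts were associated. Of 8 tested transcripts 2 were called as rising with CCL17, CD27, a costimulatory receptor (r = 0.633, limma adjusted p = 0.0560), and CTLA4, an inhibitory receptor of activated and regulatory T cells (r = 0.579, adjusted p = 0.0781). TRAT1, an adaptor of the T cell receptor, gave r = 0.434 and FOXP3, the factor of regulatory T cells, 0.204, and neither passed. The calls of CD27 and CTLA4 did not hold with the slide as a block or without SEA 1. The list's median r was 0.413 over all horses, 0.762 in SEA, 0.355 in CTRL and 0.271 in MEA. For all named transcripts the median r was 0.114, 0.378, -0.145 and 0.0609 in the same order. The list's mean level ranged from 3.92 to 5.59 in CTRL, from 4.24 to 6.16 in MEA and from 4.72 to 7.08 in SEA, near the intensity limit of 4.5. Of the 14 genes of the list only 8 passed that limit, which a transcript could pass on the SEA arrays alone. How far the calls and the median r in SEA rest on that choice was not tested. CD27 was 1.19 higher in SEA than in CTRL on the log2 scale, which did not pass (limma SE 0.56, adjusted p = 0.125).

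Markers of dendritic and other antigen presenting cells, a known source of CCL17, gave 0 calls of 12 tested transcripts in limma, again near the 4.97% of all transcripts, with a median r of 0.183. CD83, a marker of mature dendritic cells, was highest at 0.485 (limma adjusted p = 0.162), followed by CD1C at 0.441 and CD1A at 0.363, and LAMP3 was lowest at -0.0857. Over CTRL, MEA and SEA taken alone, CD83 gave r of 0.842, 0.516 and 0.230. CD1C gave 0.839, 0.0749 and 0.513 and CD1A gave 0.814, 0.529 and -0.314 in the same order, and the CTRL values include CTRL 4, with CCL17 near background.

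Of 9 tested macrophage transcripts 1 was called, where 4.97% of all tested transcripts were associated. This was SPP1, osteopontin, a secreted product of activated macrophages among other cells (r = 0.662, limma adjusted p = 0.0526). The call did not hold with the slide as a block or without SEA 1. SPP1 was 3.46 higher in SEA than in CTRL on the log2 scale (limma SE 0.81, adjusted p = 0.0124) and -0.03 apart between MEA and CTRL (adjusted p = 0.989). EMR1 and TREM2 gave r of 0.392 and 0.0307, and MPEG1 was lowest at -0.429. The list's median r was -0.0573.

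Epithelial markers gave 0 calls of 10 tested transcripts, near the 4.97% of all transcripts, with a median r of 0.0984. FOXJ1, the factor of ciliated cells, gave r = 0.236, both transcripts of the keratin KRT18 gave 0.220 and 0.164, and CDH1 was lowest at -0.0667. The mean level of the list ranged from 7.86 to 9.72 in CTRL, from 6.23 to 9.43 in MEA and from 4.596 to 8.41 in SEA. In MEA this mean gave r = -0.247 with CCL17, whereas the counted percentage of epithelial cells gave 0.641. In CTRL that percentage gave r = -0.385. With the percentage as a covariate MEA minus CTRL was -0.10 for CCL17, and 0 transcripts of the array were called between these groups in place of 480. By the study's counts the mean percentage was higher in MEA than in CTRL, so this covariate overlaps with the group. Whether epithelial cells had a part in the MEA values was not tested.

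Finally, each MEA horse was placed along the difference between SEA and CTRL by the mean of the 782 other transcripts called higher in SEA minus the mean of the 818 called lower, calls that used no MEA horse. CCL17 gave r = 0.260 with this position over the 10 MEA horses (permutation p = 0.468) and rho = 0.382 (permutation p = 0.279), and r = 0.398 without 2 horses. No relation was detected.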

How the data were processed

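RNA from BAL cells of 25 horses was hybridised to single-colour arrays, 1 array per horse, with 2 spots of a 60-base probe for each of 7238 transcripts. The authors deposited an intensity for each spot, which the scanner software had corrected for background and spatial trend within the array, and a table of intensity values normalized by cyclic loess, for which the submitters' processing notes name R 2.11.1. Columns of other kinds, deposited as flags, gave whether a spot was well above background.

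Cyclic loess (span 0.7, 3 iterations) was applied to the deposited intensities of all arrays on the log2 scale and both spots were averaged. A transcript was dropped where 19 or more of the 25 arrays read below 4.5, which left 4930. R 4.3.3 with limma 3.58.1 was used, on the arrays of the 2 groups compared. Calls required an adjusted p below 0.1 and a fold of at least 1.5. The study itself used a nonparametric test (SAM) at the same limits. Associations were fitted in limma with CCL17 as a covariate and needed only the adjusted p. Horse numbers do not pair animals between groups and were not used as a block. Permutation tests were two-sided, exact for fewer than 10 horses and with 100000 resamples for 10. Adjusted p values of transcripts are limma's. All steps were tested on simulated data.

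Arrays have no sequencing depth. Between 58.2% and 90.8% of spots were well above background, and the number of arrays limits the precision. Nothing beyond 1 lavage per horse is stated on replication. Cell percentages and sex came from the study's table of horses. Names came from the study's lists of differing transcripts, which name 1684 of the 4930, and 650 tested transcripts share their probe sequence with another. CCL17, the gene lists and the markers were chosen with earlier results of these data known. Named transcripts are CCL17, the 5 highest and 3 lowest r in each group, the 10 highest and 5 lowest over all horses, all listed chemokines and receptors, and the 3 highest and 1 lowest r of every other list, except 2 that are not reported here. Other members of short counts, and CD68, MARCO, IL4R, SOCS3, MMP9, FCAR, IL1R2 and LTB4R, were chosen after their values were seen. The alternatives were other normalizations, filters, tests, covariates and blocks, and leaving out each horse. Leaving out both arrays with a dim CCL17 spot was chosen after seeing the data.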

Additional observations from a re-analysis of the deposited data

Results flagged for a closer look

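In none of the 3 groups did a horse stand apart in CCL17 itself. Of 33 groups of values tested for a horse far from the others, 3 held one, and chance gives about 1 in 20. The mean log2 level of the chemokine ligand list was 11.03 in CTRL 5 against 11.98 in the next CTRL horse, a gap of 0.609 of the group's range. The mean of the NF kappa B list was 9.83 in MEA 3 against 8.99 in the next highest MEA horse, a gap of 0.487 of the range. The mean of the macrophage list was 8.67 in MEA 7 against 9.20 in the next lowest, a gap of 0.470.

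The slope on CCL17 differed between groups for transcripts that share 1 probe sequence. The unnamed ENSECAT00000010673 had a slope 1.36 higher in MEA than in CTRL (limma adjusted p = 0.0243) and 1.44 higher in SEA than in CTRL (adjusted p = 0.000908). ENSECAT00000010824, with the same probe sequence, had differences of 1.22 (adjusted p = 0.0133) and 1.38 (adjusted p = 0.000908). Their r with CCL17 was -0.969 and -0.963 in CTRL, and 0.828 and 0.882 in SEA. The unnamed ENSECAT00000010255, a different probe, had a slope 0.76 higher in MEA than in CTRL (adjusted p = 0.0498). These transcripts were named as the 3 of lowest r in CTRL, so a higher slope in the other groups is in part fixed by that choice. Over all 4929 transcripts the slope difference was called in limma for 3 between SEA and CTRL and 4 between MEA and CTRL (530 and 178 at an unadjusted p below 0.05). The probe sequence of ENSECAT00000010673 and ENSECAT00000010824 belongs to 3 tested transcripts, so these counts hold the same probe more than once. CTRL is a group of 7 horses with CTRL 4 near background, and slopes were not compared without that array.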

How the results depend on the processing

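SEA minus CTRL was called under all alternatives run, from 2.47 to 3.72, and from 3.16 to 4.08 when 1 horse was left out. MEA minus CTRL was never called, turned to -0.011 with array weights and to -0.10 with the epithelial percentage as a covariate, and ran from 0.41 to 1.23 with 1 horse left out. SEA minus MEA was called with array weights (3.59) and with all 25 arrays in 1 fit (2.75), and ran from 2.40 to 3.202 with 1 horse left out.

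With the replicate block the differences were 3.33, 1.33 and 2.29 (adjusted p = 0.0128, 0.480 and 0.396), with the same calls. Deviations of same-numbered horses correlated between -0.441 and 0.407, so the numbers do not pair horses.

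The relation with epithelial cells in SEA turned to -0.0118 with normexp and to -0.421 without the 2 horses farthest from the median. Without such horses those with macrophages and lymphocytes in MEA turned to -0.190 and -0.0446, and that with lymphocytes in SEA to -0.423. No relation passed after adjustment under any setting, though that with epithelial cells in MEA had an unadjusted permutation p of 0.0169 with normexp (r = 0.754), 0.0394 with quantile normalization and 0.0450 with the authors' values.

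Of the 245 transcripts associated over all horses, the count became 57 with quantile normalization, 156 with the authors' values, 162 without the filter, 1 with the percentage of detected spots as a covariate and 0 with the slide as a block, and 0 to 424 with 1 horse left out. In SEA it became 61 with the 75th percentile, 30 with normexp, 15 with the authors' values and 0 with quantile normalization, without the filter, with the share of spots or with the slide, and 0 to 267 with 1 horse left out. In CTRL it became 0 with the 75th percentile, quantile normalization, normexp, the share of spots, the slide or without the arrays with a dim CCL17 spot, and 0 to 9 with 1 horse left out. In MEA it was 0 in limma throughout, with 108 to 261 transcripts at an unadjusted p below 0.05 when 1 horse was left out. Over the settings, leaving out single horses aside, the calls between SEA and CTRL ran from 780 (normexp) to 1710 in place of 1601, between MEA and CTRL from 0 (epithelial percentage as a covariate) to 929 (array weights) in place of 480, and between SEA and MEA from 0 (75th percentile, normexp, slide or replicate block) to 816 (array weights) in place of 101. The cause of these changes was not tested.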
